A study of Mus musculus with 20 samples.

Results

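Myh11 encodes the smooth muscle myosin heavy chain, the motor protein of the contractile cells in the wall of an artery, and its transcript is a defining marker of differentiated smooth muscle. The 20 aortic endothelium libraries of this mouse study were ranked, and the members chosen, by the deposited variance-stabilized value of Myh11 (a log2 scale on which the spread is nearly the same at all levels). The 6 highest and the 6 lowest, 12 of 20 libraries, were compared whatever the treatment of the animal. The 8 libraries between them were kept aside. The sets were selected on Myh11 levels, so those levels are given as a description, and Myh11 was left out of the genes tested.

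All animals were female Apoe-/- mice (strain B6.129P2-Apoetm1Unc/J) on regular chow, given 5/6 nephrectomy at 9 weeks of age, treated once by retro-orbital injection 7 weeks later and studied 1 week after that. The 5 treatments were saline, HDL (4 mg), HDL with LNA92a (20 mg/kg), HDL with LNA489 (20 mg/kg), and HDL with both inhibitors (40 mg/kg of LNA in all), with 4 mice each. Each inhibitor is a locked nucleic acid (LNA) directed at the microRNA in its name. Libraries are named below by treatment and animal number, with "LNA92a" and "LNA489" for the groups that also received HDL and "dual" for HDL with both. RNA was taken by shearing endothelium from the aorta with a lysis reagent, so the wall beneath and the tissue around it can enter a library. The mice all lack functional Apoe and had all undergone nephrectomy, so no library is from a healthy wild-type aorta. Each library is 1 mouse, and every p-value below measures the spread between mice.

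In the medial layer of the aorta, smooth muscle cells sit between sheets of elastin and contract when calcium activates myosin light chain kinase, which phosphorylates the regulatory light chain of myosin. Serum response factor, together with its partner myocardin, binds a short element called the CArG box and drives the genes of this contractile apparatus. In atherosclerosis such cells can lose contractile gene expression and take on matrix-producing or macrophage-like states. Endothelium, the layer the study aimed to collect, lines the lumen and lies directly on this muscle.

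Myh11 (ENSMUSG00000018830.8, chr16:14194535-14291372, minus strand, GRCm38, GENCODE M21, with no exon shared with another gene) measured 12.53 in saline 1 on the variance-stabilized scale. It measured 10.54 in dual 15, 10.52 in LNA92a 12, 10.23 in LNA92a 17, 9.98 in dual 10 and 9.91 in LNA92a 18, the other members of the Myh11-high set. The Myh11-low set held LNA489 13 at 9.08, dual 8 at 8.94, saline 9 at 8.66, LNA489 14 at 8.08, HDL 23 at 7.94 and dual 21 at 7.91. The first library outside the upper edge was HDL 3 at 9.82, only 0.096 below the lowest Myh11-high library. The first outside the lower edge was HDL 11 at 9.09, which differed from LNA489 13 by 0.0085. The Myh11-low set was therefore not separated from its neighbours by a gap, whereas saline 1 stood 1.99 above every other library. In FPKM, which corrects read numbers for gene length and library size, Myh11 was 54.7 in saline 1, 8.10 to 15.7 in the other 5 Myh11-high libraries, 3.64 to 9.81 in the 8 between and 2.45 to 6.06 in the Myh11-low set. No library was without Myh11: the fewest reads were 213, in HDL 23, and the most 6037, in saline 1.

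**Figure D1:**
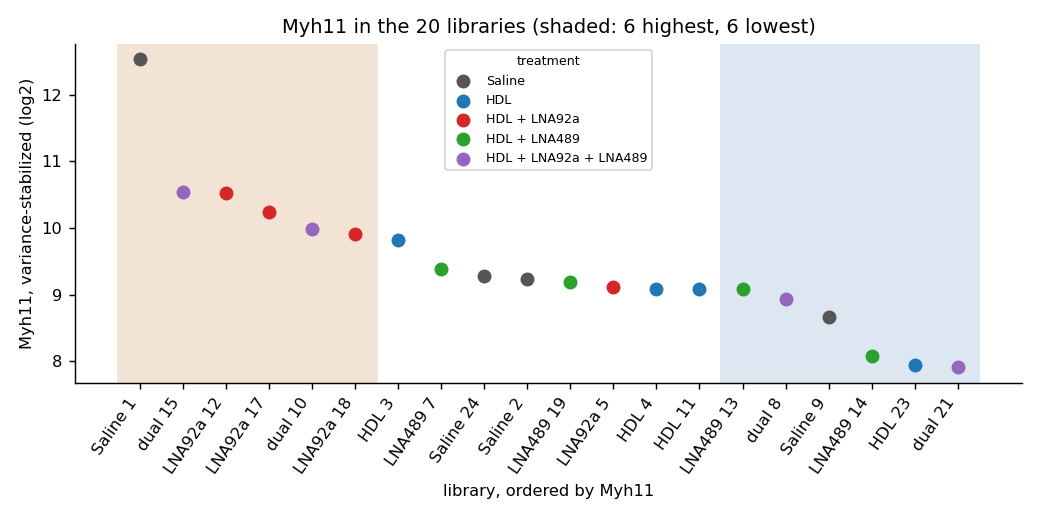
Variance-stabilized Myh11 (log2, vertical axis) in each of the 20 libraries in rank order, coloured by treatment, with the 6 highest and the 6 lowest shaded. Saline 1, at 12.53, stands apart at the top, and the edge of the lower shaded set falls between libraries that differ by 0.0085.

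Treatments were spread unevenly over the sets. Of the Myh11-high libraries 3 were LNA92a, 2 dual and 1 saline, and of the Myh11-low libraries 2 were LNA489, 2 dual, 1 saline and 1 HDL. No library of the HDL-alone or LNA489 group was Myh11-high and no LNA92a library was Myh11-low. For those 3 groups the set and the treatment cannot be told apart. Values with treatment as a term in the model stand together after the lists, and the set difference there rests on the saline and dual libraries.

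The sets had a like depth, 16.5 ± 3.96 M assigned reads in the Myh11-high and 15.9 ± 2.60 M in the Myh11-low libraries (SD, n = 6 each; exact permutation test, 2-sided, p = 0.729). Depth over all 20 libraries ran from 11.6 to 21.4 M. Reads of mitochondrially encoded genes took 15.3% ± 5.29 of the Myh11-high and 6.62% ± 4.26 of the Myh11-low libraries (SD, n = 6 each; exact permutation p = 0.0130, adjusted over 5 measures 0.0649). The smallest p that 924 splits allow is 0.00216. The 10 most-read genes took 32.2% against 19.3% (exact permutation p = 0.0563, adjusted 0.141). The share of the ribosomal transcript Rn18s-rs5 was 10.9% ± 8.08 against 5.60% ± 1.89 (SD, n = 6 each; exact permutation p = 0.167, adjusted 0.278). Apoe, the mutated gene, was read at 2.31 to 26.0 FPKM over all libraries, which all carry the mutation.

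Across 16847 genes, none passed limma's moderated test at a Benjamini-Hochberg adjusted p under 0.05 (0.0% called), and the smallest adjusted p was 0.311. Limma's voom on recovered reads also called 0. At an unadjusted p under 0.05, limma had 2457 genes (14.6%), of which 1426 (8.46%) measured higher and 1031 (6.12%) lower in the Myh11-high libraries. Differences below are the mean of the Myh11-high minus the mean of the Myh11-low libraries on the variance-stabilized log2 scale, with the standard error from limma. The median difference of all genes tested was -0.05, and 44.6% of genes lay above 0. Since no gene was called, genes are described by their values, and gene lists by how many members reached an unadjusted p under 0.05 beside those percentages. The lists were chosen with earlier results of these data known, and the smooth muscle lists describe the cell type that the ranking gene marks, so their counts are no independent evidence.

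Contractile apparatus genes measured higher in the Myh11-high libraries as a group, but unevenly. All 27 genes of the list were tested, 23 lay above 0 and 4 below, and the median difference was 0.46. At an unadjusted p under 0.05, 10 of 27 measured higher and 1 lower. The mean of the list per library ran from 9.11 to 9.40 in the Myh11-high and from 8.23 to 9.01 in the Myh11-low libraries, so the sets did not overlap. Some list genes, such as Des, Tpm1 and Tpm2, are also expressed in heart or skeletal muscle. The list mean was highest in LNA92a 18 and in LNA489 14, each also the highest of its set for heart and skeletal muscle genes. Des was 34.4 FPKM in LNA92a 18 and 71.2 in LNA489 14, the most in each set. The part of heart and skeletal muscle in this mean was not tested. Of the 8 libraries between, HDL 3 had 9.17, within the Myh11-high range, and the others lay between 8.18 and 8.80. When FPKM was summed instead, which weights the list towards its most abundant genes, the sets did overlap, at 445 to 1019 (median 647) against 456 to 828 (median 591).

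Itga8 is the integrin alpha 8 chain that anchors smooth muscle cells to their matrix. It had the smallest p among higher genes with a mean FPKM of at least 1 and no Gm, Rik or pseudogene symbol. Its lowest, median and highest FPKM were 0.689, 1.91 and 3.88 in the Myh11-high and 0.225, 0.408 and 0.964 in the Myh11-low libraries. Only LNA92a 18 of the Myh11-high set lay within the range of the Myh11-low set. The difference was 1.61 ± 0.32 (SE; limma adjusted p = 0.311). Lmod1, leiomodin, which nucleates actin filaments in muscle, was 1.80, 3.02 and 8.14 FPKM against 0.726, 1.02 and 2.25, with saline 1 at 8.14. The difference was 1.35 ± 0.31, and in variance-stabilized values it was the one gene of this list whose sets did not overlap. Over all genes 43 (0.255%) were higher without overlap and 46 (0.273%) lower.

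Myl9, the regulatory light chain of smooth muscle myosin, was 20.8, 45.2 and 80.8 FPKM (lowest, median, highest) in the Myh11-high and 6.75, 13.3 and 41.4 in the Myh11-low libraries. In the Myh11-low set, LNA489 13 (41.4) and LNA489 14 (31.1) were as high as several Myh11-high libraries, and the difference was 1.54 ± 0.35. Cnn1, calponin, which restrains actomyosin activity, was 1.45, 3.69 and 7.03 FPKM against 0.585, 0.818 and 2.79, a difference of 1.35 ± 0.31. Acta2, smooth muscle actin, was 43.4, 66.9 and 194 FPKM against 27.1, 34.8 and 132. The difference was 1.04 ± 0.36, and a single Myh11-low library, LNA489 13 at 132, lay above 5 of the 6 Myh11-high ones. Mylk, the myosin light chain kinase, was 3.76, 4.78 and 7.58 against 2.31, 3.45 and 6.5, a difference of 0.76 ± 0.24 with overlapping sets.

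**Figure D2:**
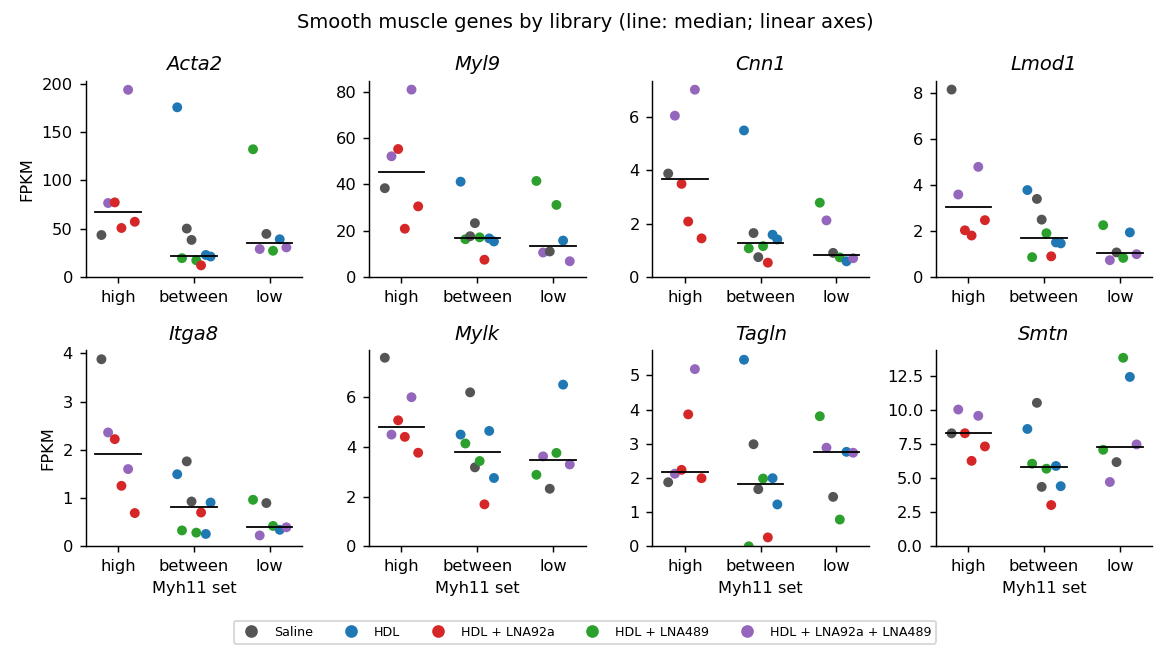
FPKM (linear axes from 0) of 8 smooth muscle genes in each library, grouped as Myh11-high, between and Myh11-low and coloured by treatment, with a line at the median. Itga8, Cnn1 and Lmod1 are mostly above the Myh11-low range in the Myh11-high libraries, LNA489 13 is high for Acta2 at 132, and Tagln and Smtn overlap throughout.

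Other standard markers had overlapping sets. Tagln, transgelin, a small actin-binding protein, was 1.87, 2.18 and 5.18 FPKM in the Myh11-high and 0.782, 2.75 and 3.80 in the Myh11-low libraries, with a difference of 0.39 ± 0.28. Its value is uncertain, since 67.9% of its exon bases are shared with Pcsk7 or Gm48529 and the strand of counting was not given. Smtn, smoothelin, a protein of the contractile cell's filaments, was 6.27, 8.30 and 10.0 against 4.72, 7.28 and 13.8, a difference of 0.29 ± 0.21 that became 0.69 with treatment as a term (limma unadjusted p = 0.0230). Myocd, myocardin, was at 0.198 to 0.814 FPKM against 0.047 to 0.944 and fell under the minimum mean of 0.5 FPKM for testing. Srf, serum response factor, was 5.62 to 9.24 against 5.94 to 12.5 FPKM, a difference of -0.06 ± 0.14. Eln, the elastin that medial smooth muscle lays down, was 8.69, 61.6 and 141 FPKM in the Myh11-high libraries. In the Myh11-low set Eln was 9.31, 127 and 187, a difference of -0.66 ± 0.81 that became -1.996 with treatment as a term. In each set the libraries with the least and the most Eln also had the least and the most of the endothelial gene Pecam1. These were saline 1 and LNA92a 18 in the Myh11-high and LNA489 14 and HDL 23 in the Myh11-low set, and the link was not tested. Saline 1, the library with the most Myh11, had the lowest Eln, Acta2 and Tagln of its set, at 8.69, 43.4 and 1.87 FPKM. The ranking thus went with part of the contractile programme, and the sets are called Myh11-high and Myh11-low here rather than rich or poor in smooth muscle. In bulk RNA, fewer cells of a type and less RNA per cell cannot be told apart.

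RefSeq promoter windows on GRCm38.p6, from 250 bases before to 50 after each start, were given for 22 of the 27 contractile genes, as 27 windows. A CArG box (CC, then 6 positions of A or T, then GG, which reads the same on both strands) was found in 4 of these windows (14.8%), of Myl9, Cnn2, Myl6 and Fhl1, and in 535 of all 32851 windows (1.63%). Those of Myl9 and Cnn2 are shown because they belong to the member with a box that differed most and to one whose difference was near 0. The box, in capitals, begins at -161 of the start in Myl9 and at -56 in Cnn2.
Myl9, chr2:156775214-156775463, plus strand: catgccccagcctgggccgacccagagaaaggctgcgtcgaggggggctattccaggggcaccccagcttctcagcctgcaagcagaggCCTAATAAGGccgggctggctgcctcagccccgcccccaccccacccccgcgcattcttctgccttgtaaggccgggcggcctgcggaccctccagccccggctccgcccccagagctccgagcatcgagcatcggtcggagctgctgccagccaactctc
Cnn2, chr10:79988350-79988599, plus strand: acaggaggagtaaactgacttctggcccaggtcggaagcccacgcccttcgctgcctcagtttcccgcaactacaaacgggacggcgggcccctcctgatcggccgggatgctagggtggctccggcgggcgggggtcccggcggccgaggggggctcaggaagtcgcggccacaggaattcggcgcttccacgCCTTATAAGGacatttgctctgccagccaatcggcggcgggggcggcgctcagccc
Cnn2, calponin 2, a widely expressed relative of Cnn1, was 14.6, 17.1 and 31.3 FPKM (lowest, median, highest) in the Myh11-high and 11.7, 26.6 and 39.2 in the Myh11-low libraries, a difference of -0.09 ± 0.22. Myl6, the essential light chain of myosin, differed by 0.31 ± 0.15 and Fhl1, a LIM-domain protein, by 0.12 ± 0.37. The windows of Itga8, Lmod1, Cnn1 and Acta2 held no exact match, and Myh11, Tagln, Actg2, Nexn and Fbxo32 were among the genes with no window. Only exact matches were counted, so a window without one can still hold a CArG-like site. The Acta2 window holds ccctatatgg and ccttgtttgg, each with a single C or G among the A or T positions. Cnn2, Myl6, Fhl1, and in the list count Fbxo32 at -0.94 ± 0.34, the 1 contractile list gene with an unadjusted p under 0.05 that measured lower, were chosen for mention after their values were seen.

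Genes that smooth muscle uses to set its tone measured higher in the Myh11-high libraries in much the same proportion. Of 31 channels, receptors and cyclic GMP signalling genes 23 were tested, 20 lay above 0 and 3 below, with a median of 0.92. At an unadjusted p under 0.05, 9 measured higher and 0 lower. The list mean had a median of 7.77 in the Myh11-high and 6.85 in the Myh11-low libraries. It was 6.67 to 6.96 in HDL 3, saline 24 and HDL 11, within the Myh11-low range. In the other libraries between it was 7.73 to 8.22, within the Myh11-high range. The mean of the adipocyte list, described below, was 8.21 to 9.32 in the former and 12.1 to 13.0 in the latter. With that mean as a term, the median difference of this list kept its sign. Ednra, the endothelin receptor of contracting vessels, was 0.286, 1.11 and 2.04 FPKM in the Myh11-high libraries and was listed at 0 in 3 of the 6 Myh11-low ones, with 1.56 in LNA489 14 (1.75 ± 0.51). Kcnj8, the pore subunit of the vascular ATP-sensitive potassium channel, was 0.642, 3.85 and 7.51 against 0.180, 0.493 and 3.50 (1.53 ± 0.47). Ryr2, a calcium release channel of heart and smooth muscle, was 0.10, 0.952 and 2.07 against 0.136, 0.250 and 0.371 (1.46 ± 0.47). Pln, phospholamban, which inhibits the calcium pump of the sarcoplasmic reticulum, differed by 1.70 ± 0.49, with 64.7% of its exon bases shared with Cep85l. Ryr2 and Pln are also expressed in heart muscle, and LNA92a 18, the library highest in heart muscle genes, had the most of both among the 12 libraries (2.07 and 42.8 FPKM).

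Pericytes wrap small vessels and share part of the smooth muscle programme. Of 12 genes in the pericyte list 5 measured higher at an unadjusted p under 0.05 and 0 lower, with a median of 0.48. The list mean was 7.28 to 8.68 in the Myh11-high and 6.55 to 7.86 in the Myh11-low libraries. It was 6.82 to 7.22 in HDL 3, saline 24 and HDL 11 and 7.75 to 8.18 in the other libraries between. Art3, a membrane-anchored ADP-ribosyltransferase family member, was 2.98, 6.40 and 8.58 FPKM against 0.190, 0.922 and 3.88 (2.05 ± 0.48). Abcc9, the partner subunit of Kcnj8, was 1.04, 5.64 and 14.2 against 0.266, 0.707 and 5.81 (1.98 ± 0.75). Rgs5, a regulator of G protein signalling, was 5.89, 19.9 and 37.0 against 2.04, 9.66 and 18.8 (1.28 ± 0.52). Dual 8 and LNA489 14 were highest for Abcc9 in the Myh11-low set, at 5.35 and 5.81.

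Lists of structural and regulatory genes, many of them also expressed outside smooth muscle, did not follow. The focal adhesion and the regulator list had their highest means in LNA92a 18 of the Myh11-high and HDL 23 of the Myh11-low set. The endothelial list was highest in the same libraries, and this link was not tested. Of 16 focal adhesion and actin crosslinking genes 11 lay below 0 (median -0.17), with 2 higher at an unadjusted p under 0.05 and 0 lower. Itga7, a laminin-binding integrin, differed by 1.23 ± 0.41 and Fermt2, kindlin-2, by 0.68 ± 0.28. Tln1, talin, and Itgb1, the integrin beta 1 chain, were at -0.35 ± 0.16 and -0.47 ± 0.26. Of 16 tested transcriptional regulators 1 was higher and 2 lower at that p, with a median of -0.06. The higher one was Nr2f2, a nuclear receptor of venous and mesenchymal cells (1.68 ± 0.47), and the lower ones Mef2d (-0.35 ± 0.15) and Mkl1, an actin-sensing partner of serum response factor (-0.55 ± 0.24). The list of modulated smooth muscle and fibromyocyte genes had a median of -0.17, with 2 of 13 higher and 0 lower. In it Dcn, decorin, a collagen-binding proteoglycan, was 1.60 ± 0.68 and Vcam1, a leukocyte adhesion molecule, -1.20 ± 0.72.

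Fat genes differed by more than smooth muscle genes between the same sets. The adipocyte list had a median difference of 2.25, 15 of 15 genes above 0 and 14 with an unadjusted p under 0.05. Its mean per library was 10.7 to 13.1 (median 12.0) in the Myh11-high and 7.63 to 12.1 (median 9.43) in the Myh11-low libraries, and its summed FPKM 1162 to 7676 against 148 to 4640. Dual 8 and LNA489 14 carried fat genes at the level of the Myh11-high set. Adipoq, adiponectin, was 60.0, 158 and 373 FPKM in the Myh11-high and 3.33, 24.9 and 206 in the Myh11-low libraries, a difference of 2.65 ± 0.92. Cfd, adipsin, differed by 2.86 ± 0.90, and Cidea, a lipid droplet protein abundant in brown fat, by 3.04 ± 0.97. Ucp1, the uncoupling protein of brown fat, was 120, 363 and 1229 FPKM against 11.1, 74.2 and 905 (2.25 ± 1.05). The part of fat in the results for other genes was tested only by the model with the adipocyte mean, given below.

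Nuclear genes of oxidative phosphorylation, which are abundant in brown fat and heart, had a median difference of 1.44, and 19 of 19 measured higher at an unadjusted p under 0.05. Cox7a1, a muscle and brown fat subunit of cytochrome oxidase, was 80.2, 163 and 240 FPKM against 2.89, 20.9 and 156, a difference of 2.70 ± 0.73. Sdhb, a subunit of succinate dehydrogenase, was 59.1, 144 and 202 against 21.7, 39.2 and 122 (1.61 ± 0.43). The Myh11-low library with the most of both was dual 8, at 156 and 122.

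Heart muscle genes also measured higher, with a median of 1.63, 16 of 16 above 0 and 12 with an unadjusted p under 0.05. Myl7, the atrial regulatory light chain, was 22.9, 68.5 and 307 FPKM in the Myh11-high and 0.943, 12.6 and 22.4 in the Myh11-low libraries (2.90 ± 0.63). Its sets did not overlap, where 43 (0.255%) of all genes were higher without overlap. Tnnt2, cardiac troponin T, was 1.41, 5.33 and 37.4 against 0.183, 1.04 and 1.96 (2.90 ± 0.67). Myh6, the atrial myosin heavy chain, was 1.54, 11.3 and 83.5 against 0.497, 1.72 and 4.79 (3.00 ± 0.77). The highest library for all 3 was LNA92a 18. Skeletal muscle genes had 14 of 14 above 0 (median 0.86) and 0 with an unadjusted p under 0.05 in either direction. The Myh11-low library LNA489 14 stood apart there, with Acta1, skeletal actin, at 822 FPKM against 12.9 to 143 in the Myh11-high set.

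**Figure D3:**
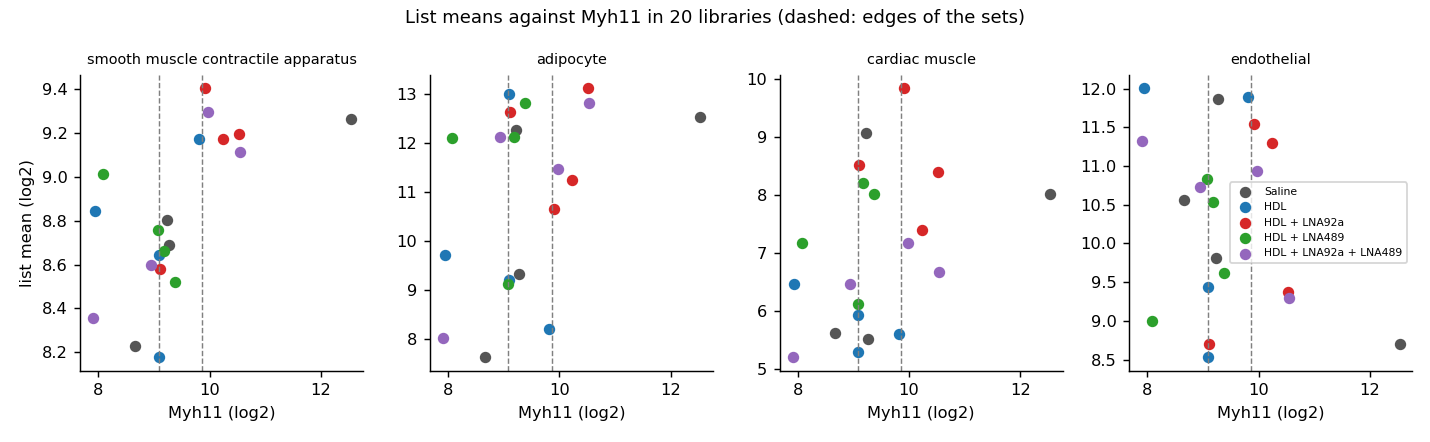
Mean of 4 gene lists (log2, vertical axes, separate scales) against Myh11 (log2) in the 20 libraries, coloured by treatment, with dashed lines at the edges of the sets. The contractile list does not overlap between the outer sets (9.11 to 9.40 against 8.23 to 9.01), while the adipocyte, heart muscle and endothelial lists do.

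Fibroblast and matrix genes lay on the same side as fat. The fibroblast list had a median of 1.17, 16 of 18 genes above 0, and 5 higher and 0 lower at an unadjusted p under 0.05. Dpt, dermatopontin, a matrix protein of the adventitia, was 44.3, 108 and 308 FPKM against 1.27, 16.7 and 246 (2.28 ± 0.92), with the 246 in LNA489 14. Of 16 elastic fibre genes 1 was higher, Mfap4, a fibrillin-binding microfibril protein, at 6.67, 17.2 and 71.7 against 0.237, 0.766 and 13.0 (2.86 ± 0.72), and the list's median was 0.40. Proteoglycans and matrix regulators had 6 of 17 higher, 0 lower and a median of 0.73, with Aspn, asporin, at 1.89 ± 0.73 and Ogn, osteoglycin, at 2.02 ± 0.86. Basement membrane and vessel collagens had 0 of 17 in either direction. Their median was 0.24, and relative to the median of all genes it was 0.29, and 0.30 on a log2(FPKM + 0.1) scale, where the median of all genes was -0.34.

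Endothelial genes, the intended tissue, measured lower in most cases with a wide spread. Of 23, 20 lay below 0 (median -0.79), none was lower and 2 were higher at an unadjusted p under 0.05. Pecam1, an adhesion molecule at endothelial junctions, was 23.4, 143 and 488 FPKM in the Myh11-high and 38.6, 255 and 1008.5 in the Myh11-low libraries, a difference of -0.97 ± 0.94. Vwf, the clotting protein stored in endothelium, was 7.76, 58.9 and 161 against 11.9, 112 and 313 (-1.01 ± 0.90). Kdr, the main VEGF receptor, was among those higher, at 7.00, 7.73 and 9.85 against 2.85, 4.10 and 13.5 (0.99 ± 0.32), and Fabp4, found in capillary endothelium and fat, was the other (1.87 ± 0.63). The mean of the endothelial list exceeded that of the adipocyte list in 2 of 6 Myh11-high and 4 of 6 Myh11-low libraries. Flow-responsive genes had 0 of 14 in either direction and a median of -0.63, with Klf2, a shear-induced transcription factor, at -0.42 ± 0.44. Notch signalling had 12 of 14 below 0 (median -0.30) and 0 in either direction, with Jag1, a Notch ligand, at -0.78 ± 0.36 and Heyl, a Notch target, at 0.42 ± 0.25.

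Immune lists pointed in different directions. Foam cell and plaque macrophage genes had a median of -1.02, 15 of 18 below 0 and 2 lower at an unadjusted p under 0.05, Abca1, a cholesterol exporter (-0.91 ± 0.38), and Itgax, the CD11c chain (-1.63 ± 0.72). Gpnmb, a lysosomal glycoprotein of lipid-laden macrophages, was 37.5, 168 and 580 FPKM against 84.8, 539 and 1584 (-1.50 ± 0.78), with LNA489 13 and saline 9 the highest. T and NK cell genes had 12 of 12 below 0 (median -0.79) and 3 lower at that p, Cd4 (-1.25 ± 0.53), Cd3d (-0.71 ± 0.30) and Cd3g (-0.97 ± 0.44), which are T cell surface proteins. Resident adventitial macrophage genes lay on the other side, with a median of 0.60 and 4 of 15 higher. Lyve1, a hyaluronan receptor, was 8.51, 23.0 and 55.9 FPKM against 0.788, 4.81 and 40.9 (1.98 ± 0.79), and Pf4 was 1.30 ± 0.50. B cell, neutrophil, and erythroid and platelet lists had medians of -0.13, -0.32 and -0.04, with 1 of 12, 0 of 7 and 0 of 10 members at that p.

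Signalling and state lists gave few members. TGF-beta and BMP signalling had 2 of 19 higher and 1 lower (median -0.22): Bmp2, a bone morphogenetic ligand, at 1.01 ± 0.33, Tgfb3, a TGF-beta ligand, at 1.06 ± 0.44 and Tgfbr1, the type I receptor, at -0.97 ± 0.33. Vascular calcification had 2 of 11 higher and 2 lower, among them Alpl, the alkaline phosphatase of mineralizing tissue, at 1.09 ± 0.43 and Slc20a1, a phosphate transporter, at -0.71 ± 0.27. Cell cycle genes had 15 of 16 below 0 (median -0.43) and 0 at that p. Immediate early genes had 1 of 16, Atf3, a stress-induced transcription factor, at -1.31 ± 0.43. Interferon response genes had 0 of 15, with a median of 0.19. The 7 neuron and Schwann cell genes tested had a median of 0.43, and adrenal cortex genes had 0 of 6 at that p.

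**Figure D4:**
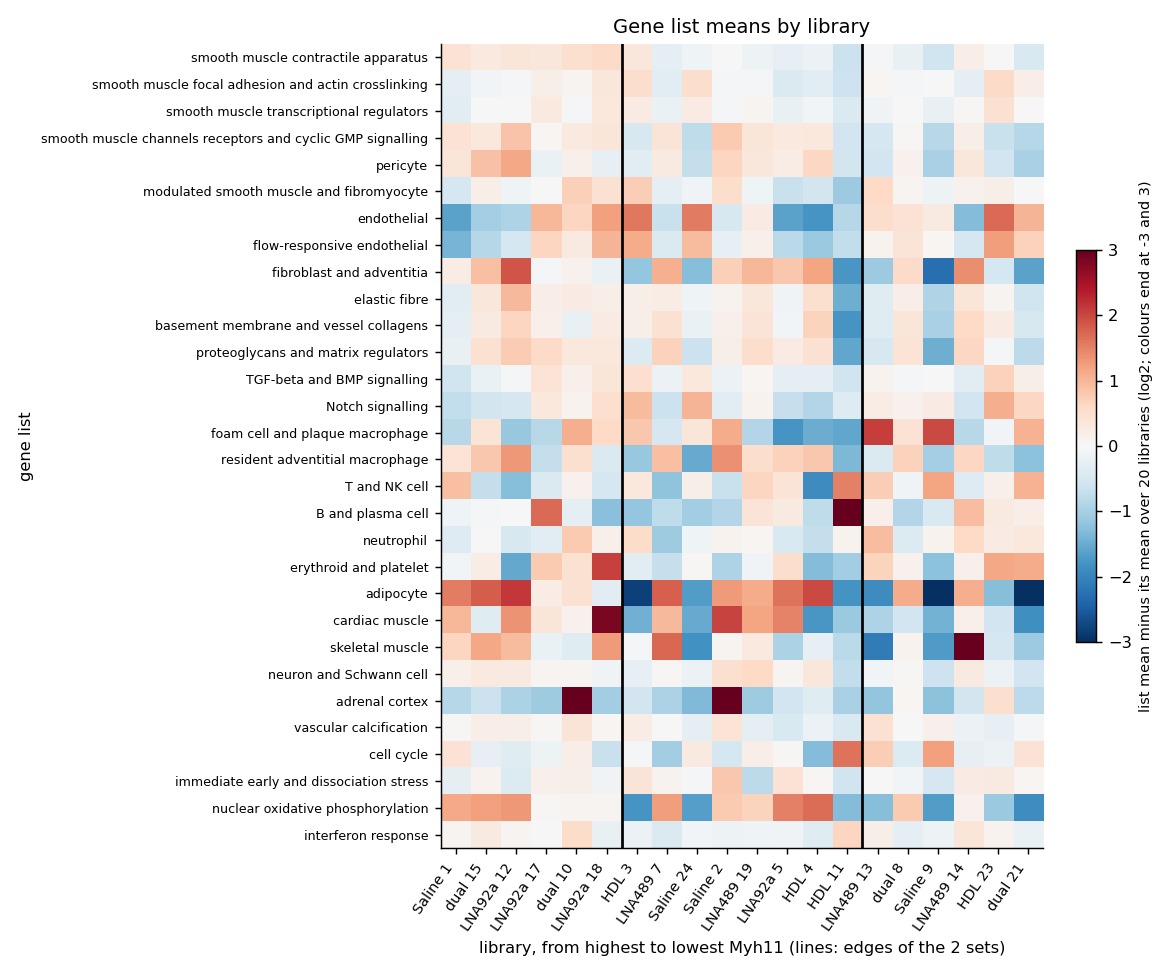
Mean of each of 30 gene lists in each library, as its distance from the list's mean over 20 libraries (log2, colour ends at -3 and 3), with libraries from highest to lowest Myh11 and lines at the edges of the sets. The contractile row is above its mean in all 6 Myh11-high libraries, and the adipocyte and oxidative phosphorylation rows vary more and share their pattern. Dual 10 and saline 2 stand apart for adrenal genes and LNA489 14 for skeletal muscle genes.

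Of the 5 genes with the smallest p in each direction under the naming rule, Itga8 was the one on a smooth muscle list. Nrtn, the growth factor neurturin, was 2.18, 3.73 and 7.04 FPKM in the Myh11-high and 0.181, 0.588 and 3.10 in the Myh11-low libraries (1.33 ± 0.27), with sets that did not overlap in variance-stabilized values. The mitochondrial transfer RNA genes mt-Tl1 (1.51 ± 0.32) and mt-Tm (1.27 ± 0.27) came next, beside the higher share of mitochondrial reads in these libraries. Pfdn5, a subunit of the prefoldin chaperone, differed by 0.60 ± 0.13. Among genes that measured lower, Aatk, a neuronal kinase, was 0.288, 0.742 and 1.145 FPKM against 1.40, 1.70 and 2.43 (-0.88 ± 0.21). Ctns, the lysosomal cystine exporter, was 1.70, 4.82 and 7.06 against 8.01, 9.95 and 13.6 (-0.83 ± 0.20), and Mafg, a small Maf transcription factor, 3.58, 5.51 and 7.62 against 7.92, 9.99 and 13.1 (-0.62 ± 0.15). Zswim3 (-0.85 ± 0.20) and Mir7031 (-0.76 ± 0.19) completed the 5, and the sets of all 5 did not overlap. Over all genes 43 (0.255%) were higher and 46 (0.273%) lower without overlap. The genes here were picked by small p from the same values, so their lack of overlap is no added evidence.

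The lists differed in how they answered to the way the sets were made. With the adipocyte list mean as a term, 1.56% of all genes were higher and 1.37% lower at an unadjusted p under 0.05. In the contractile list 6 of 27 genes were then higher at a median of 0.44, and in the heart muscle list 9 of 16 at 1.73. Under the same model the oxidative phosphorylation list had 0.34 with 5 of 19, the fibroblast list -0.39 with 0 higher and 3 of 18 lower, and the endothelial list 0.39 with 0 in either direction. The adipocyte list itself is near 0 there (0.02) by construction, since its own mean is in the model. Ranking by Myh11 FPKM brought HDL 3 into the upper set for LNA92a 18, and LNA92a 5 and HDL 4 into the lower set for LNA489 13 and dual 8. Of all genes, 0.629% were then higher and 0.878% lower. That ranking left 9 of 27 contractile genes higher (median 0.36) but 1 of 15 adipocyte (median 1.11), 0 of 19 oxidative phosphorylation (0.53) and 0 of 16 heart muscle genes (0.77). No gene of these lists was lower. The median of the foam cell list, -1.02 with 6 against 6, was 0.06 in this ranking and 0.04 with the adipocyte mean as a term, and that of the endothelial list was 0.22 in this ranking. The difference in the mitochondrial read share was 2.79 percentage points under that ranking, in place of 8.71. Acta2 then differed by 1.70 and Cnn1 by 1.75, in place of 1.04 and 1.35.

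With treatment as a term, 6.13% of all genes were higher and 5.66% lower at an unadjusted p under 0.05, and the smallest limma adjusted p was 0.361. Of the contractile list 12 genes were higher and 1 lower (median 0.60), with Myl9 at 2.41, Lmod1 at 2.03, Itga8 at 1.96 and Acta2 at 1.42. Higher genes were 9 of 15 in the adipocyte list (median 3.11), 10 of 19 in oxidative phosphorylation (1.68) and 5 of 16 in heart muscle (1.497), where Myh6 was 2.05 in place of 3.00. The endothelial median was -1.47 with 2 genes higher and 3 lower, Pecam1 was -2.38 in place of -0.97, and 4 of 14 flow-responsive genes were lower (median -1.38). Interferon response genes had 5 of 15 higher (median 0.49) where 0 were before. No foam cell gene (median -1.05) and no T and NK cell gene (-0.62) was lower in this model, in place of 2 and 3. The medians of 5 lists changed sign: vascular calcification (-0.32), neutrophil (0.17), immediate early (0.14), erythroid and platelet (0.19) and B and plasma cell genes (0.19). Among 137 named genes 6 did so. With the highest and lowest library of each treatment, 3.26% of all genes were higher and 3.73% lower. The pairs take in libraries from between the sets, HDL 3 and LNA489 7 as the higher and LNA92a 5 as the lower of their treatments. In that comparison 6 contractile genes (median 0.32) and 1 adipocyte gene (median 1.75) were higher, and 1 contractile and 0 adipocyte genes lower.

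Without saline 1, dual 10 and LNA489 14, the libraries that stood apart for Myh11, adrenal and skeletal muscle genes, 14 of 27 contractile, 13 of 15 adipocyte, 12 of 18 fibroblast and 12 of 14 skeletal muscle genes were higher at an unadjusted p under 0.05, beside 12.0% of all genes. In that comparison 13 of 18 foam cell and 11 of 12 T and NK cell genes were lower, in place of 2 and 3, beside 10.7% of all genes. In the Myh11-low set LNA489 14 had the highest contractile, fibroblast and skeletal muscle means and the lowest foam cell and T and NK cell means. Leaving it out moves these differences in a known direction, so their counts are no added evidence. Over the 31 ways of making the comparison that were run, the contractile and the T and NK cell lists were the ones whose median kept its sign in every one (lowest and highest contractile median 0.30 and 2.45, the highest from a slope scaled to the gap between the sets). Those ways share most of their libraries. The adipocyte and heart muscle lists changed sign in 1, the slope over the 8 libraries between the sets, and the oxidative phosphorylation list in that slope both with and without HDL 3.

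**Figure D5:**
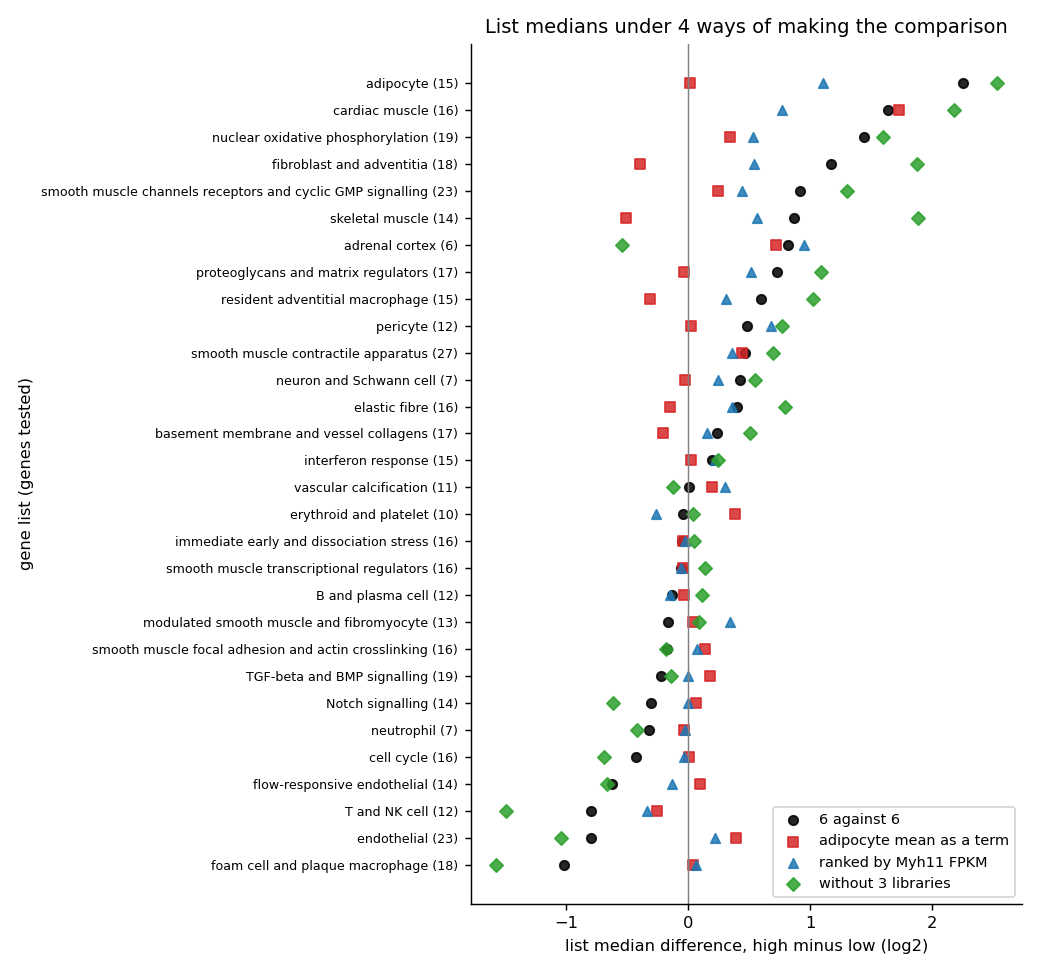
Median difference of each list (log2, Myh11-high minus Myh11-low) in the 6 against 6 comparison, with the adipocyte mean as a term, with libraries ranked by Myh11 FPKM, and without 3 libraries that stood apart. The contractile median is 0.46, 0.44, 0.36 and 0.69, and the adipocyte median 2.25, 0.02, 1.11 and 2.53, of which the 0.02 is near 0 by construction, as its own mean is in that model.

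The 8 libraries between the sets are the next in the same ranking by Myh11 and span 0.73 in it, but 7 of them lie between 9.09 and 9.38 and HDL 3 lies at 9.82. Within the 8 the slope on Myh11 had the sign of the 6 against 6 difference in 30.4% of the 16847 genes and in 20 of 27 contractile genes. Of the channels, receptors and cyclic GMP signalling genes 5 of 23 kept that sign, and of the pericyte genes 2 of 12. The slope of Acta2 was 3.85 ± 0.76 per unit of Myh11 and that of Cnn1 2.08 ± 0.72 (SE, limma). All 15 adipocyte genes and all 19 oxidative phosphorylation genes had slopes below 0, and 21 of 23 endothelial genes had slopes above 0, the opposite of the outer sets. None of 16847 slopes passed an adjusted p under 0.05 in limma, and 972 (5.77%) had an unadjusted p under 0.05. The foam cell list, with 16 of 18 slopes above 0, was also opposite to the outer sets. These slopes rest in part on HDL 3. In the 7 libraries without it, which span 0.289 in Myh11, the slope had the sign of the 6 against 6 difference in 49.8% of all genes. It had that sign in 18 of 27 contractile genes, in 11 of 23 channels, receptors and cyclic GMP signalling genes and in 5 of 12 pericyte genes. In limma 625 genes (3.71%) had an unadjusted p under 0.05. The slope of Acta2 was then 1.98 ± 1.83 and that of Cnn1 -0.12 ± 1.62. Slopes were above 0 in 12 of 15 adipocyte and 14 of 16 heart muscle genes, where 0 and 4 were with HDL 3, and in 4 of 19 oxidative phosphorylation genes. Endothelial genes had 22 of 23 and foam cell genes 18 of 18 slopes above 0, so for these lists the sign did not turn with HDL 3.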

How the data were processed

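Total RNA from 20 aortic endothelium samples was sequenced, and the members and gene lists here were chosen with earlier results of these data known. The authors deposited variance-stabilized values on a log2 scale for 20442 genes and FPKM for 32081 genes with symbols and lengths. Per the submitters' processing notes, the build was GRCm38.p5 and the tools, with no roles given, included DESeq2 1.18.1, featureCounts 1.15.29, STAR 2.5.3a, cutadapt 1.16 and FastQC. How strand was counted, and which annotation release, is not given in the sources used here, so overlapping and antisense genes are uncertain.

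Whole reads were recovered from FPKM and gene length (a whole number to within 0.1 for 100% of values checked) and gave depth and library shares. FPKM is scaled by all assigned reads, so it is lower for other genes where mitochondrial and ribosomal reads take a larger share. Genes with a mean FPKM of at least 0.5 were tested on the log2 values with limma (version 3.58.1, R 4.3.3), with a trend, 2-sided and Benjamini-Hochberg adjusted at 0.05. Library measures used exact permutation tests. Scripts were tested on simulated data.

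Genes were named by rule: the 12 largest differences per direction among called genes, filled to 5 by smallest p as values only (mean FPKM of at least 1), the 4 list members with the smallest p per list, and fixed markers. Naming by difference or p left out Gm, Rik and pseudogene symbols. Genes named for a value they stand out by were chosen after it was seen. Coordinates are from GENCODE M21, whose build is GRCm38. Of 461 list genes 426 were tested. Alternatives covered the split, the scale, the filter, library weights, treatment, the adipocyte mean and each library left out.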

Additional observations from a re-analysis of the deposited data

Results flagged for a closer look

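Within each set of 6 libraries, the highest or lowest library was compared with the nearest of the others by Dixon's ratio, and 13 of 346 values passed the 95% critical value, where chance passes about 1 in 20. Myh11, by which the sets were chosen, was left out of this comparison, although saline 1 stood 1.99 above every other library in it. The ratios were taken on the variance-stabilized scale for genes, and the values below are FPKM unless said otherwise.

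Among Myh11-high libraries, dual 10 carried adrenal cortex genes far above the other 5: Star 238 (others 3.80 to 8.00), Cyp11a1 52.95 (0.087 to 0.402), Cyp21a1 413.8 (0 to 0.38), Akr1b7 116.6 (0 to 0.635), and a mean of the adrenal cortex list of 12.7 on the log2 scale (5.28 to 5.70). Star, Cyp11a1 and Cyp21a1 act in steroid hormone synthesis. Dual 10 also had Kdr at 7.00, against 7.02 to 9.85, and was the lowest on the variance-stabilized scale.

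Among Myh11-low libraries, LNA489 14 had Pvalb, a fast skeletal muscle protein, at 46.5 (others 0 to 1.59), Bmp2 at 1.71 (0.17 to 0.515) and Itga2b, a platelet integrin, at 2.44 (0.601 to 0.92). The same library had Eln at 9.31 (73.2 to 187) and Vcam1 at 6.63 (37.0 to 84.7), its lowest values. LNA489 13 had Acta2 at 132 (27.1 to 44.6). In dual 8 the 10 most-read genes took 28.2% of reads, against 15.3% to 19.0%. Values without saline 1, dual 10 and LNA489 14 together stand with the results above.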

How the results depend on the processing

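Under the 30 alternatives no gene was called by limma at an adjusted p under 0.05, except without LNA489 14 and without the 3 libraries that stood apart (an alternative chosen after seeing the data, like the exchange of saline 1 for HDL 3 and the slope between the sets without HDL 3). Leaving out 1 library at a time gave 0 to 2 genes higher and 0 lower: without LNA489 14, Sox12 (1.33 ± 0.18) and the small RNA gene Gm25291 (1.71 ± 0.22), both at adjusted p = 0.0379. Without the 3 libraries 1 gene was lower, Traj15, a T cell receptor joining segment (-1.86 ± 0.20, adjusted p = 0.0346). In the 6 against 6 comparison their adjusted p was 0.317, 0.311 and 0.311. These 3 genes were picked with their values in view, and the cause was not tested. Genes at an unadjusted p under 0.05, 2457 with 6 against 6, were 1384 without saline 9, 1450 without dual 21, 1574 without LNA92a 12, 1598 without dual 15 and 4119 without LNA489 14. They were 1030 with HDL 3 in place of saline 1, 3834 without the 3 libraries, 847 with 8 against 8, 1637 with all 20 libraries in the fit, 1178 with the highest and lowest library of each treatment, 1018 as a slope over 20 libraries, 972 as a slope over the 8 between, 625 as that slope without HDL 3, 3807 and 3799 on log2(FPKM + 0.1) and log2(FPKM + 1), 254 ranked by Myh11 FPKM, 494 with the adipocyte mean as a term and 4690 with library weights. With log2(FPKM + 0.1) as the scale, the all-gene median moved from -0.05 to -0.34, and 515 genes were higher and 3292 lower, in place of 1426 and 1031; relative to that median the contractile list stood at 0.66. Of 137 named genes with a difference, 103 had the opposite sign in the slope over the 8 libraries between the sets, 67 in that slope without HDL 3, 41 with the adipocyte mean as a term and 11 ranked by Myh11 FPKM. No paired analysis was possible because the animal numbers in the labels do not recur across treatments. At 11.6 to 21.4 M reads weakly read genes such as Nrtn, with 3 to 144 reads, are imprecise.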

Other observations

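Saline 1 stood above all 19 other libraries in a few more genes, chosen here after their values were seen. Slc13a3, a dicarboxylate transporter of kidney tubules, was 9.76 FPKM against at most 1.27 elsewhere, and Slc6a19, a neutral amino acid transporter of kidney and gut, 5.91 against at most 2.72. Lmod1 was 8.14 against at most 4.78. Among the libraries between the sets, saline 2 carried adrenal cortex genes like dual 10, with a higher list mean and Cyp11a1 at 68.1 FPKM, and HDL 11 carried B cell genes, with a list mean of 12.1 and Ms4a1, the CD20 antigen, at 61.1 FPKM.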
